A study of Mus musculus with 13 samples.

Results

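The 39 interferon response genes described here are a named list of genes induced by interferon, each read from the probe sets annotated to it and to no other gene under its current or an older symbol. They were followed in multipotent bone marrow cells of mice that carry the PML-RARA fusion and of wild-type littermates. Of the 39 genes, 35 had at least 1 array probe set listed under them alone, 33 had 3 or more, and 31 passed the filter on low values and were tested, among 10586 tested genes of 16299 with such a probe set. The 8 genes not tested were Isg15, Usp18, Xaf1 and Oas1a (no probe set listed under them alone), Ifit1 and Ifit3 (fewer than 3 probe sets), and Mx1 and Mx2 (below the filter). The ISG15 system and the classical Ifit and Mx genes were therefore seen through few members.

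Interferons are secreted antiviral proteins. Type I interferons bind the Ifnar1 and Ifnar2 receptor chains, whose kinases Jak1 and Tyk2 phosphorylate Stat2; a complex that holds Stat2 and Irf9 then binds the interferon-stimulated response element (ISRE) near its target genes. Type II interferon acts through Ifngr1 and Ifngr2 and leads to binding at the gamma-activated site (GAS). In bone marrow, interferons are known to drive resting stem cells into the cell cycle, and several of the genes below are also known to be transcribed at a low level without infection.

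The study compared sorted cells of mice expressing PML-RARA, the fusion protein of acute promyelocytic leukaemia (mCG-PR), with those of WT littermates, on the Affymetrix Mouse Exon 1.0 ST array. Each array held total RNA of cells from 1 mouse, taken from femurs and tibiae. The fusion is expressed from a locus written Ctg, read here as that of cathepsin G (Ctsg), which is a granule protease made mainly by promyelocytes. Whether the fusion was active in the sorted cells was not tested here. The labels name the sorted populations KLS and SLAM, which in common usage are lineage-negative Kit+ Sca-1+ cells and the stem cell fraction among them defined by SLAM family receptors; the sources used here do not give the gates. All mice were of the strain labelled Bl/6 Taconic, and the mCG-PR mice had the genotype label mCG-PR N17. The KLS arrays came from 4 WT mice (replicates 1 and 2 aged 13 weeks, replicates 3 and 4 aged 12 weeks), from 3 mCG-PR mice aged 6 weeks and from 2 mCG-PR mice aged 13 weeks. The SLAM arrays came from 2 WT mice aged 6 weeks and from 2 mCG-PR mice aged 7 weeks. Age and genotype cannot be told apart in the comparison of 6-week mCG-PR KLS with WT KLS, nor age and population in that of WT SLAM with WT KLS. No group was treated with interferon.

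Levels are given as log2 intensity, the median over the probe sets of a gene, of which the tested members had 5 to 27. They can be compared between arrays but not between genes. Adjusted p-values are from limma, two-sided, with Benjamini-Hochberg adjustment over all 10586 tested genes and a threshold of 0.05, and values after ± are standard errors unless marked SD. In cell mixtures such as these, fewer cells of a type and less RNA per cell cannot be told apart.

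The arrays as a whole bear on these genes in 3 ways. The median intensity over all probe sets ranged from 98.6 to 115.3, and the Pearson correlation of arrays of 1 group across genes was 0.950 to 0.966 in KLS but 0.828 in WT SLAM and 0.821 in mCG-PR SLAM. Cd48, which is absent from stem cells in the SLAM scheme, was at 8.28 to 9.61 on the KLS arrays and at 4.24 to 5.56 on the SLAM arrays, and Kit was at 9.56 to 10.51 on all 13. Slamf1, which defines the SLAM gate, was at 7.47 to 7.68 on the WT SLAM arrays but at 6.21 to 6.63 on the mCG-PR SLAM arrays, where it reached the KLS range of 5.17 to 6.31. WT SLAM replicate 2 stood apart in its mean neutrophil marker level (10.73, where the remaining 12 arrays had 7.89 to 9.20). It was also the highest of all 13 arrays in its mean level of B cell markers (7.62) and of erythroid markers (7.05). For the Y-linked gene Eif2s3y, both mCG-PR SLAM arrays (3.49 and 3.61) and replicate 3 of 6-week mCG-PR KLS (4.18) were low, and the remaining 10 arrays were at 7.78 or above. The labels used here give no sex, so sex and genotype cannot be told apart in the SLAM comparison. The members lie on 14 chromosomes, none of them a sex chromosome.

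RefSeq promoter windows (build GRCm38.p6, 250 bases before to 50 after each annotated start) were found for 30 of the 39 genes, as 36 windows. The ISRE core was searched as GAAANNGAA and the GAS as TTCNNNGAA, on both strands, with overlapping matches counted. Of the 36 windows, 17 (47.2%) held an ISRE core, against 8.56% of all 32851 windows, and 10 (27.8%) held 2 or more, against 0.624%. A GAS match was present in 8 windows (22.2%), against 8.3% of all, and both in 4 (11.1%), against 1.07%. A match describes the letters and not a binding site. Counted by gene, 17 of the 30 had an ISRE core, 8 a GAS match and 9 neither. Isg15, Ifit1 and Ifit3 each had 3 ISRE cores in a window, yet none of these could be tested here. The 250 bases before the start are shown for 4 genes on which the results below turn, with the matches in capitals, to set 2 promoters with such letters beside 2 without.
Bst2 (chr8:71537473-71537722, minus strand): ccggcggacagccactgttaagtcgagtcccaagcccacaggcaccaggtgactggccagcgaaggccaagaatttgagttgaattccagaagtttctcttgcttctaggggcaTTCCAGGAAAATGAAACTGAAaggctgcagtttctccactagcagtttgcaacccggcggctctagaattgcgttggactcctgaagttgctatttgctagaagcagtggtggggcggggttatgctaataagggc
Cd274 (chr19:29367188-29367437, plus strand): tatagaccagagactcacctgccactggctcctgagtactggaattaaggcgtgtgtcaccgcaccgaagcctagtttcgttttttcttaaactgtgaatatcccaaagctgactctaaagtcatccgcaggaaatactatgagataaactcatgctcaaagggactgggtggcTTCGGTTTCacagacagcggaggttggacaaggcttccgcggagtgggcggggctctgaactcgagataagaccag
Oasl1 (chr5:114922990-114923239, plus strand): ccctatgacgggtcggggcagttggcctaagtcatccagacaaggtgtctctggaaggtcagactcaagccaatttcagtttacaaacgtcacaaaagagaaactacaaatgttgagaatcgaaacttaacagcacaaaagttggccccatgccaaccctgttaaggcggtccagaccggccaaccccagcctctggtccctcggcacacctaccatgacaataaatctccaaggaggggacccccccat
Psmb9 (chr17:34187331-34187580, minus strand): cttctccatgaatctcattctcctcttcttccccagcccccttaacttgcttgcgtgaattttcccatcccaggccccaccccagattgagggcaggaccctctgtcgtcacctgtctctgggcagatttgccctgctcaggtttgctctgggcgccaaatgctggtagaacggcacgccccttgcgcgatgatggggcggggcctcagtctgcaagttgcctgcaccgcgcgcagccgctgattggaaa
The Bst2 stretch holds a GAS match at bases -136 to -128 from the start that runs into ISRE cores at -130 to -122 and -124 to -116. The Cd274 stretch holds 1 ISRE core on the opposite strand, at -76 to -68. The windows of Oasl1 and Psmb9 held neither motif.

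**Figure D1:**
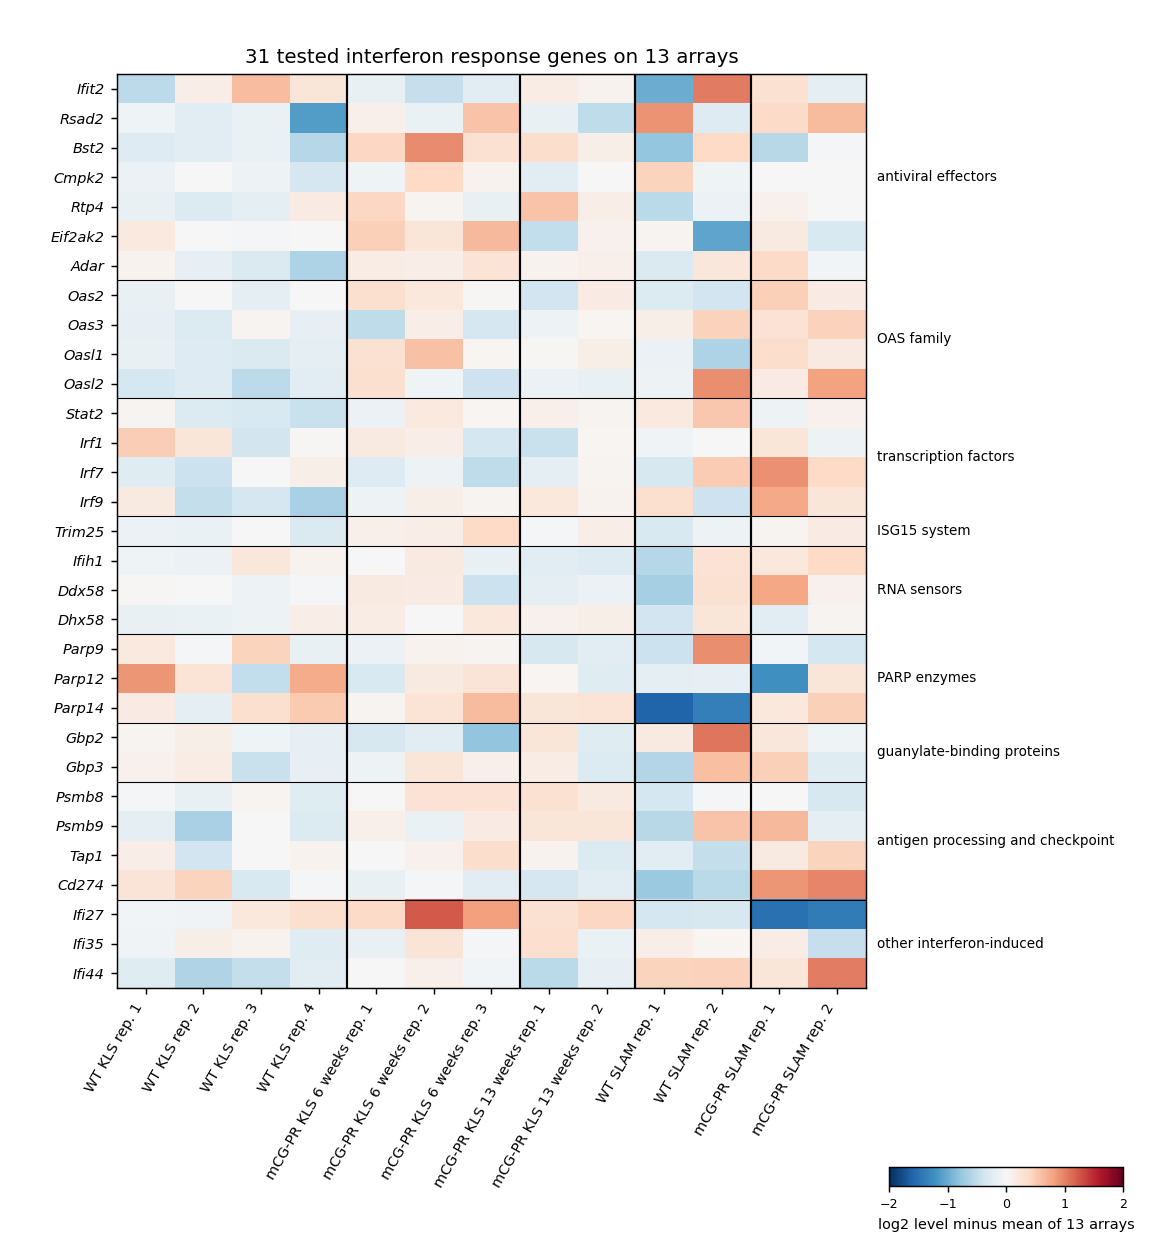
Heat map of the 31 tested genes (vertical axis, ordered by role) on the 13 arrays (horizontal axis, by group); the colour is the log2 level minus the gene's mean over all arrays. Bst2 is above its mean on all 5 mCG-PR KLS arrays, Parp14 is lowest on both WT SLAM arrays (6.20 and 6.44), and Ifi27 is lowest on both mCG-PR SLAM arrays (6.41 and 6.50).

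In KLS cells, the question was whether interferon response genes differ between mCG-PR and WT mice. Over both ages, none of the 31 tested genes passed the adjusted threshold in limma, where 9 of all tested genes did (0.085%). At an unadjusted p below 0.05, 9 members were higher in mCG-PR KLS (29.0%, against 9.69% of all genes) and none was lower (against 2.38%). They were Bst2, Oasl1, Ifi27, Adar, Psmb9, Irf9, Psmb8, Stat2 and Trim25. Of the 31 differences, 21 were positive (67.7%), a share near the 67.9% of all genes, and the median log2 difference was 0.15 against 0.09 for all genes. The 5 mCG-PR arrays lay wholly above the 4 WT arrays for 3 members, Bst2, Oasl1 and Adar (9.68%, against 3.55% of all genes), and wholly below for none (against 0.652%).

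Bst2 encodes tetherin, a membrane protein that holds budding viruses at the cell surface. Its log2 level was 7.65, 7.70, 7.78 and 7.34 on the WT KLS arrays, 8.33, 8.87 and 8.23 at 6 weeks and 8.26 and 8.04 at 13 weeks in mCG-PR KLS. All 5 mCG-PR arrays were therefore above all 4 WT arrays, and replicate 2 of 6 weeks was the highest. The group means were 7.62 ± 0.19 (SD, n = 4) and 8.35 ± 0.31 (SD, n = 5), a log2 difference of 0.73 ± 0.17 or 1.66-fold, which did not pass the threshold (adjusted p = 0.120). All 5 of its probe sets pointed the same way. At 6 weeks the difference was 0.86 ± 0.18 (adjusted p = 0.106) and at 13 weeks 0.53 ± 0.20 (adjusted p = 0.291). Leaving out 1 array at a time moved the difference over both ages between 0.60 and 0.80, with adjusted p between 0.0862 and 0.301.

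Bst2 is also a surface marker of plasmacytoid dendritic cells, the main producers of type I interferon, and other markers of those cells moved with it. Of 8 markers on that list, 7 were tested, and 6 of them are not interferon response members here. Siglech, a receptor of plasmacytoid dendritic cells, was at 5.96 to 6.55 in WT KLS and at 7.18 to 8.11 in mCG-PR KLS. It rose by 1.36 ± 0.19 over both ages (adjusted p = 0.0193) and by 1.61 ± 0.17 at 6 weeks (adjusted p = 0.00191). Ly6d, at 6.96 to 7.74 in WT KLS and 8.10 to 8.46 in mCG-PR KLS, rose by 1.05 ± 0.17 over both ages (adjusted p = 0.0213). The Siglech call over both ages was lost without WT KLS replicate 1 (adjusted p = 0.0706), 2 (0.0921) or 4 (0.0780) or 6-week replicate 1 (0.0588), whereas its 6-week call held without each array in turn. The Ly6d call held only without WT KLS replicate 3 or 6-week replicate 3 and was lost without any other array (adjusted p between 0.0537 and 0.108). Under a replicate block Siglech kept its call over both ages and Ly6d lost it (0.0994). With WT KLS replicates 3 and 4 as the only controls both calls were lost (0.363 and 0.428), as was that of Siglech at 6 weeks (0.123), and both were lost at equal weights over all 13 arrays (0.0944 and 0.433). Cox6a2 was 0.93 higher (adjusted p = 0.0652), and Tcf4 and Runx2 were 0.42 and 0.28 higher. The mean level of the 6 markers was 7.35 to 7.80 on WT KLS arrays, 8.26 to 8.62 on mCG-PR KLS arrays and 6.99 to 7.52 on SLAM arrays, so that its KLS groups did not overlap either. Other marker lists differed between the same arrays. Mitotic genes had a mean marker level of 7.55 to 8.53 in WT KLS and 8.53 to 9.02 in mCG-PR KLS, and all 7 tested were higher at an unadjusted p below 0.05. Of 8 neutrophil markers 7 were lower, 4 of them at an unadjusted p below 0.05, with a median of -0.45, and S100a8 fell by 1.28 (adjusted p = 0.0213). Of 8 stem and progenitor markers 3 were lower at that level and 1 was higher. Of 6 monocyte and macrophage markers Ccr2 and Csf1r were higher at that level (1.09 and 0.77) and Lyz2 was lower (-0.52). Of the differences of these 6 markers, 50% were negative. Of 4 T and natural killer markers Klrd1 alone was higher at that level (2.3-fold) and none was lower. No marker of these 3 lists passed the adjusted threshold. The part of these marker lists in the differences of the interferon response genes was not tested.

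**Figure D2:**
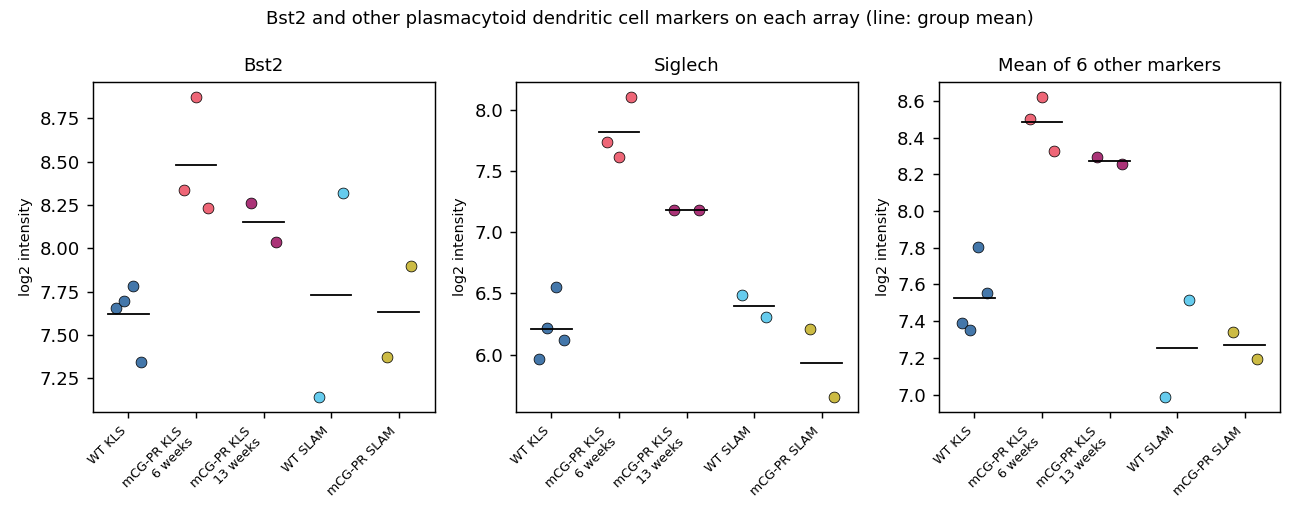
Log2 intensity of Bst2 (left), of Siglech (middle) and the mean of 6 plasmacytoid dendritic cell markers other than Bst2, Siglech among them (right) on each array, with 1 point per mouse and a line at the group mean. In all 3 panels the 5 mCG-PR KLS points lie above the 4 WT KLS points; the means of the 6 markers are 8.26 to 8.62 and 7.35 to 7.80.

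Among the other antiviral effectors, Adar and Rtp4 had the smallest p after Bst2. Adar encodes the RNA-editing deaminase that turns adenosine in double-stranded RNA into inosine. Its level was 7.44, 7.20, 7.08 and 6.76 in WT KLS, 7.52, 7.50 and 7.65 at 6 weeks and 7.45 and 7.48 at 13 weeks. The mCG-PR arrays were close together and WT KLS replicate 1 nearly reached them. The difference over both ages was 0.40 ± 0.14 (adjusted p = 0.293), and it moved to 0.28 without WT KLS replicate 4, the lowest array. Rtp4, which encodes a receptor-transporting protein with antiviral action, was at 7.77, 7.65, 7.74 and 8.10 in WT KLS, at 8.34, 7.99 and 7.77 at 6 weeks, and at 8.50 and 8.06 at 13 weeks. Its groups overlapped, and its difference was 0.32 ± 0.16 over both ages (adjusted p = 0.452). Rsad2 (viperin) differed by 0.37, Cmpk2, a mitochondrial nucleotide kinase, by 0.17, and Ifit2, which binds viral RNA, by -0.25. Of the 7 tested effectors, none passed the adjusted threshold, 2 were higher at an unadjusted p below 0.05 (28.6%, against 9.69% of all genes) and 6 differences were positive (85.7%, against 67.9%). The positive ones include Eif2ak2 (0.15), for which 5 of 17 probe sets were positive and 12 negative, so that its direction was not settled. For Rsad2, 4 of 7 probe sets were positive, with a median of 0.02.

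Eif2ak2 (PKR), a kinase that stops translation when it meets double-stranded RNA, was the effector that differed most between the ages. Its level was 8.53, 8.33, 8.31 and 8.32 in WT KLS, 8.81, 8.58 and 8.98 at 6 weeks, and 7.83 and 8.41 at 13 weeks. The 6-week arrays lay above every WT array, and both 13-week arrays below every 6-week array. The 13-week minus 6-week difference was -0.67 ± 0.20 (adjusted p = 0.276), with 15 of 17 probe sets negative, and it was -0.38 without replicate 1 of 13 weeks.

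The oligoadenylate synthetase family senses double-stranded RNA and, through RNase L, leads to RNA decay. Oasl1 and Oasl2 are relatives, of which Oasl1 lacks that enzymatic product. Oasl1, which is known to hold back translation of Irf7, was at 6.53, 6.43, 6.40 and 6.51 in WT KLS, at 7.00, 7.27 and 6.73 at 6 weeks and at 6.72 and 6.81 at 13 weeks. The WT arrays spanned a narrow range (SD 0.06) and all 5 mCG-PR arrays were above them. The difference was 0.44 ± 0.14 over both ages (adjusted p = 0.235), 0.53 ± 0.15 at 6 weeks (adjusted p = 0.189) and 0.30 ± 0.17 at 13 weeks (adjusted p = 0.459). All 9 probe sets were positive over both ages. Oasl2, Oas2 and Oas3 differed by 0.26, 0.15 and -0.02.

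Of the 4 transcription factors, Irf9 and Stat2, both parts of the type I complex, were higher at an unadjusted p below 0.05, and Irf1 and Irf7 were not. Irf9 was at 8.14, 7.49, 7.63 and 7.33 in WT KLS, at 7.87, 8.09 and 8.03 at 6 weeks and at 8.18 and 8.05 at 13 weeks. WT KLS replicate 1 lay among the mCG-PR arrays and the other 3 WT arrays below them. Its difference was 0.40 ± 0.16 (adjusted p = 0.343). Stat2 was at 7.13, 6.82, 6.78 and 6.63 in WT KLS against 6.97, 7.28, 7.12, 7.18 and 7.14 in mCG-PR KLS, a difference of 0.30 ± 0.13 (adjusted p = 0.396), again with WT KLS replicate 1 inside the mCG-PR range. Irf1, the factor of the interferon-gamma response, differed by -0.19 and Irf7, which amplifies type I interferon production, by -0.06. For Irf7 the probe sets pointed the other way, with 9 of 12 positive and a median probe set difference of 0.50, so that its direction was not settled. Trim25, the ubiquitin ligase that activates RIG-I and the only tested member of the ISG15 system, was at 7.64, 7.63, 7.76 and 7.48 in WT KLS and at 7.73 to 8.16 in mCG-PR KLS, a difference of 0.28 ± 0.13 (adjusted p = 0.404).

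In the antigen-processing group, Psmb8 and Psmb9 encode catalytic subunits of the immunoproteasome, and Tap1 carries the resulting peptides towards MHC class I. Psmb9 was at 10.73, 10.27, 10.92 and 10.64 in WT KLS, at 11.02, 10.79 and 11.08 at 6 weeks and at 11.16 and 11.15 at 13 weeks. The 13-week arrays were above all 4 WT arrays, and replicate 2 of 6 weeks was below WT KLS replicate 3. Its difference was 0.40 ± 0.15 over both ages (adjusted p = 0.315) and 0.51 ± 0.19 at 13 weeks (adjusted p = 0.274). Psmb8 differed by 0.30 ± 0.13 (adjusted p = 0.368), and Tap1 by 0.09. The Tap1 value depended on the summary: 14 of 15 probe sets were positive, with a median of 0.29, and the mean of probe sets gave a difference of 0.32 (adjusted p = 0.187). Cd274, which encodes the checkpoint ligand PD-L1, differed by -0.28 ± 0.15 (adjusted p = 0.500), with WT KLS at 6.69 to 7.43 and mCG-PR KLS at 6.65 to 6.96.

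Ifi27, as the array annotation uses that symbol, was at 7.84, 7.83, 8.11 and 8.21 in WT KLS, at 8.27, 9.11 and 8.72 at 6 weeks and at 8.21 and 8.31 at 13 weeks. The 6-week arrays were above all WT arrays and the 13-week arrays at the top of the WT range. The difference was 0.53 ± 0.18 over both ages (adjusted p = 0.281) and 0.70 ± 0.19 at 6 weeks (adjusted p = 0.176). In RefSeq the symbol is also an older name of Ifi27l2a, while the probe sets of D12Ertd647e carry an older name of the current Ifi27; the latter differed by 0.28 over both ages (adjusted p = 0.528). Which of these related mitochondrial proteins the 6 probe sets measure was not settled. Ifi44 and Ifi35 differed by 0.26 and 0.08. For Ifi35, 3 of 8 probe sets were positive, with a median of -0.11, so that its direction was not settled.

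In the remaining roles the differences were of both signs. The RNA sensors Ifih1 (MDA5), Ddx58 (RIG-I) and Dhx58 (LGP2) differed by -0.11, -0.06 and 0.17, and the highest of them, Dhx58, was at 6.23 to 6.52 in WT KLS and 6.38 to 6.60 in mCG-PR KLS. Parp9, Parp12 and Parp14, of the ADP-ribosyltransferase family, differed by -0.22, -0.36 and 0.09, although 10 of 15 probe sets of Parp9, like 12 of 20 of Ddx58, were positive. Parp12 was at 7.30, 6.70, 5.93 and 7.16 in WT KLS, a wider spread than the 6.11 to 6.68 of mCG-PR KLS. The guanylate-binding proteins Gbp2 and Gbp3, GTPases that attack the membranes of intracellular microbes, differed by -0.24 and 0.11. For Gbp3, 8 of 17 probe sets were positive and 9 negative, so that its direction was not settled. None of these 8 genes passed an unadjusted p of 0.05 in either direction over both ages.

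Split by age, no member passed the adjusted threshold at 6 weeks (4 of all genes did, 0.0378%) or at 13 weeks (1 gene, 0.00945%). At 6 weeks 8 members were higher at an unadjusted p below 0.05 (25.8%, against 10.9% of all genes) and Gbp2 alone was lower (3.23%, against 1.69%). Gbp2 was at 7.06 to 7.34 in WT KLS and at 6.90, 7.02 and 6.44 at 6 weeks. The median member difference at 6 weeks was 0.22 against 0.11 for all genes. Quantile normalization or subtraction of array medians took the median of all genes to 0.01 and 0.03 and that of the members to 0.11 and 0.13. At 13 weeks, with mice of nearly the same age as the WT mice, 4 members were higher (Psmb9, Bst2, Rtp4 and Irf9; 12.9%, against 7.57%) and Parp9 was lower (3.23%, against 5.91%), with a median of 0.06 against 0.05 for all genes.

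Between 13 and 6 weeks in mCG-PR KLS, no member passed the adjusted threshold, where 1 gene did (0.00945%). No member was higher at an unadjusted p below 0.05 (against 2.76% of all genes), and Eif2ak2 alone was lower (3.23%, against 9.36%). The median member difference was -0.14 and that of all genes -0.07. Differences at 6 and at 13 weeks share the 4 WT arrays, and the difference between the ages shares its arrays with both.

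**Figure D3:**
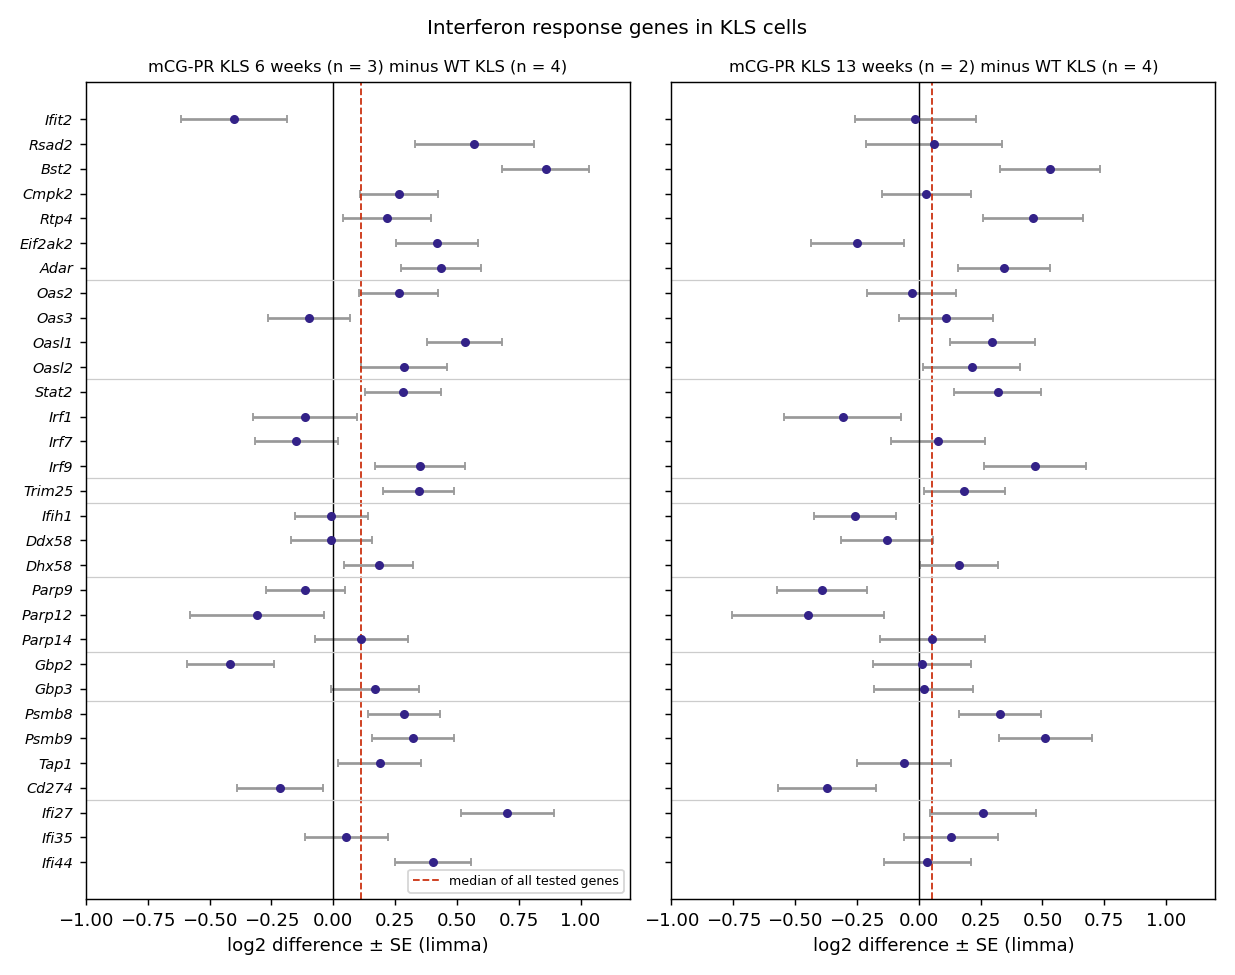
Log2 difference with its standard error for each of the 31 genes (vertical axis, grouped by role) between mCG-PR KLS and WT KLS, at 6 weeks (left, n = 3 and 4) and 13 weeks (right, n = 2 and 4); the dashed line is the median of all 10586 tested genes. Bst2 has the highest value in both panels (0.86 and 0.53), and Gbp2 (-0.42) and Parp12 (-0.45) the lowest in the left and the right panel; no difference passed the adjusted threshold.

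**Figure D4:**
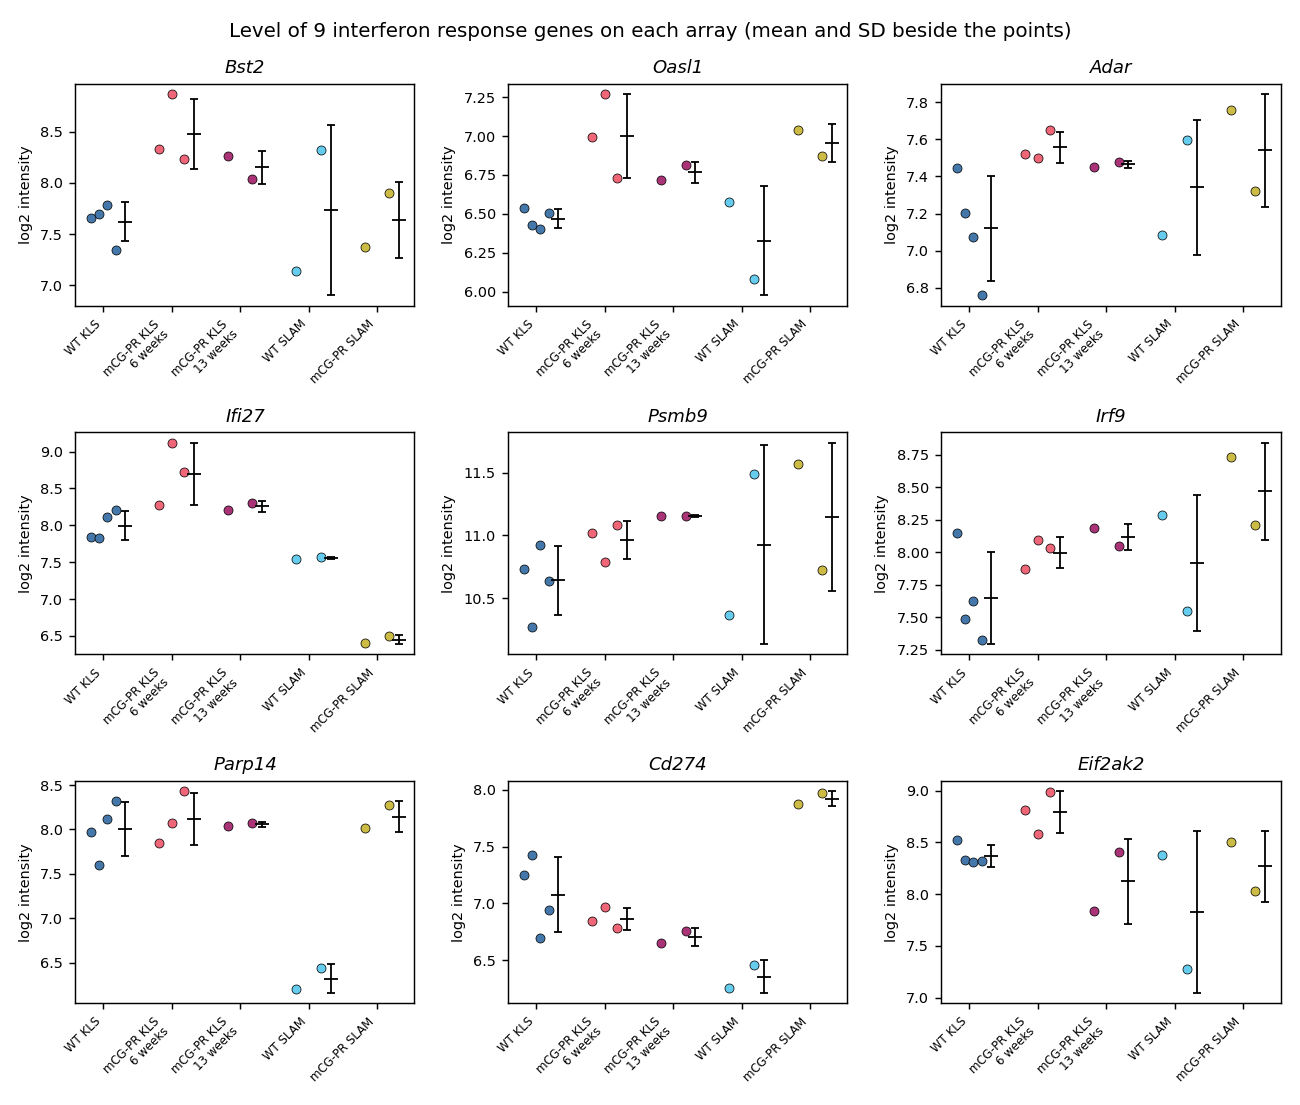
Log2 intensity (vertical axes, each with its own range) of 9 interferon response genes on each of the 13 arrays, with the group mean and SD beside the points. Bst2, Oasl1 and Adar are higher on all 5 mCG-PR KLS arrays than on all 4 WT KLS arrays. Parp14, Cd274 and Ifi27, and also Oasl1, separate the SLAM groups.

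Between WT SLAM and WT KLS cells, 1 of the 31 members passed the adjusted threshold, where 330 of all genes did (3.12%). Parp14, which encodes the largest of the 3 proteins of the ADP-ribosyltransferase family on the list, was at 7.97, 7.60, 8.12 and 8.32 in WT KLS and at 6.20 and 6.44 in WT SLAM. Both SLAM arrays lay far below every KLS array. The log2 difference was -1.68 ± 0.31 (adjusted p = 0.0114), a level 0.31 times that of WT KLS, and all 6 of its probe sets were lower. The call rested on both SLAM arrays: without replicate 1 the difference was -1.57 (adjusted p = 0.106), and without replicate 2 it was -1.80 (adjusted p = 0.0690). In simulated data the fit over both populations made more false calls than its threshold allows, a caution for every call between WT SLAM and WT KLS given here. The simulation took each gene's spread from these few arrays, so the extent of this in the real data was not tested.

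At an unadjusted p below 0.05, 3 members were higher in WT SLAM (9.68%, against 3.91% of all genes) and 2 were lower (6.45%, against 13.8%). The higher ones were Ifi44, Oasl2 and Stat2. Ifi44, a cytoplasmic protein induced by type I interferon, was at 7.24 to 7.61 in WT KLS and at 8.28 and 8.30 in WT SLAM, a difference of 0.84 ± 0.27 (adjusted p = 0.112). Cd274, the other lower gene, was at 7.25, 7.43, 6.69 and 6.95 in WT KLS and at 6.25 and 6.46 in WT SLAM, a difference of -0.72 ± 0.29 (adjusted p = 0.199). The median member difference was -0.01 and that of all genes -0.05, and the former was 0.08 after quantile normalization or subtraction of array medians. It also moved with the SLAM arrays, to -0.19 without replicate 2. The WT SLAM arrays differed widely: replicate 2 was higher than replicate 1 for 23 of 31 members, and replicate 1 was the lowest of all 13 arrays for 12.

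Between mCG-PR SLAM and WT SLAM, no gene at all passed the adjusted threshold in the fit of these 4 arrays (0%), and the smallest adjusted p over all genes was 0.101. Of the members, 2 were higher at an unadjusted p below 0.05 (6.45%, against 2.19%) and 1 was lower (3.23%, against 4.08%). The SLAM groups did not overlap for 7 members that were higher in mCG-PR (22.6%, against 16.4% of all genes) and 2 that were lower (6.45%, against 18.8%). Of the 31 differences 22 were positive (71.0%, against 47.7% of all genes), with a median of 0.18 against -0.02. The probe sets left the direction of some members unsettled. Of the positive ones, Psmb8, Gbp3 and Oasl2 had 7 of 8, 12 of 17 and 8 of 14 probe sets negative, and Ifit2 had 3 of 6. Of the negative ones, Dhx58 had 8 of 15 probe sets positive and Stat2 had 14 of 27. Marker lists differed between the same arrays: neutrophil markers had a median of -1.57, with 5 of 8 lower without overlap, and mitotic markers a median of -0.71, with 5 of 7 lower without overlap, and their part in these differences was not tested. The member median was 0.38 without WT SLAM replicate 2 and 0.010 without replicate 1.

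Parp14 was at 8.02 and 8.27 in mCG-PR SLAM against 6.20 and 6.44 in WT SLAM, so that the mCG-PR SLAM level was within the range of the KLS arrays. The difference was 1.83 ± 0.29 or 3.54-fold (adjusted p = 0.730), with all 6 probe sets positive. This comparison and that of WT SLAM with WT KLS share the WT SLAM arrays. Cd274 was at 7.88 and 7.97 in mCG-PR SLAM against 6.25 and 6.46 in WT SLAM, and these mCG-PR values were the highest of all 13 arrays. Its difference was 1.57 ± 0.28 or 2.96-fold (adjusted p = 0.730), with all 5 probe sets positive. Ifi27 was at 6.41 and 6.50 in mCG-PR SLAM against 7.54 and 7.57 in WT SLAM, a difference of -1.10 ± 0.27 (adjusted p = 0.750), carried by 4 of 6 probe sets. The probe sets of D12Ertd647e, by contrast, gave a difference of 0.63 (adjusted p = 0.874).

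Tap1, at 7.85 and 8.13 in mCG-PR SLAM and 7.46 and 7.20 in WT SLAM, differed by 0.66 ± 0.30 (adjusted p = 0.807). Oas2 and Oasl1 also did not overlap, with differences of 0.64 and 0.63, nor did Rtp4 (0.39) and Trim25 (0.31), and Stat2 was the other lower gene without overlap (-0.37). For Stat2, however, 14 of 27 probe sets were positive, with a median probe set difference of 0.12, so that its direction was not settled. Bst2, the leading gene in KLS, was at 7.14 and 8.32 in WT SLAM and at 7.37 and 7.90 in mCG-PR SLAM, a difference of -0.10 ± 0.48. When all 13 arrays entered 1 fit at equal weights, so that the smaller spread of the KLS arrays was lent to the SLAM arrays, Parp14 (adjusted p = 0.00684), Cd274 (adjusted p = 0.00702) and Ifi27 (adjusted p = 0.0363) passed the threshold. The median within-group SD of the members was 0.22 in KLS and 0.34 in SLAM, close to the 0.22 and 0.33 of all genes.

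**Figure D5:**
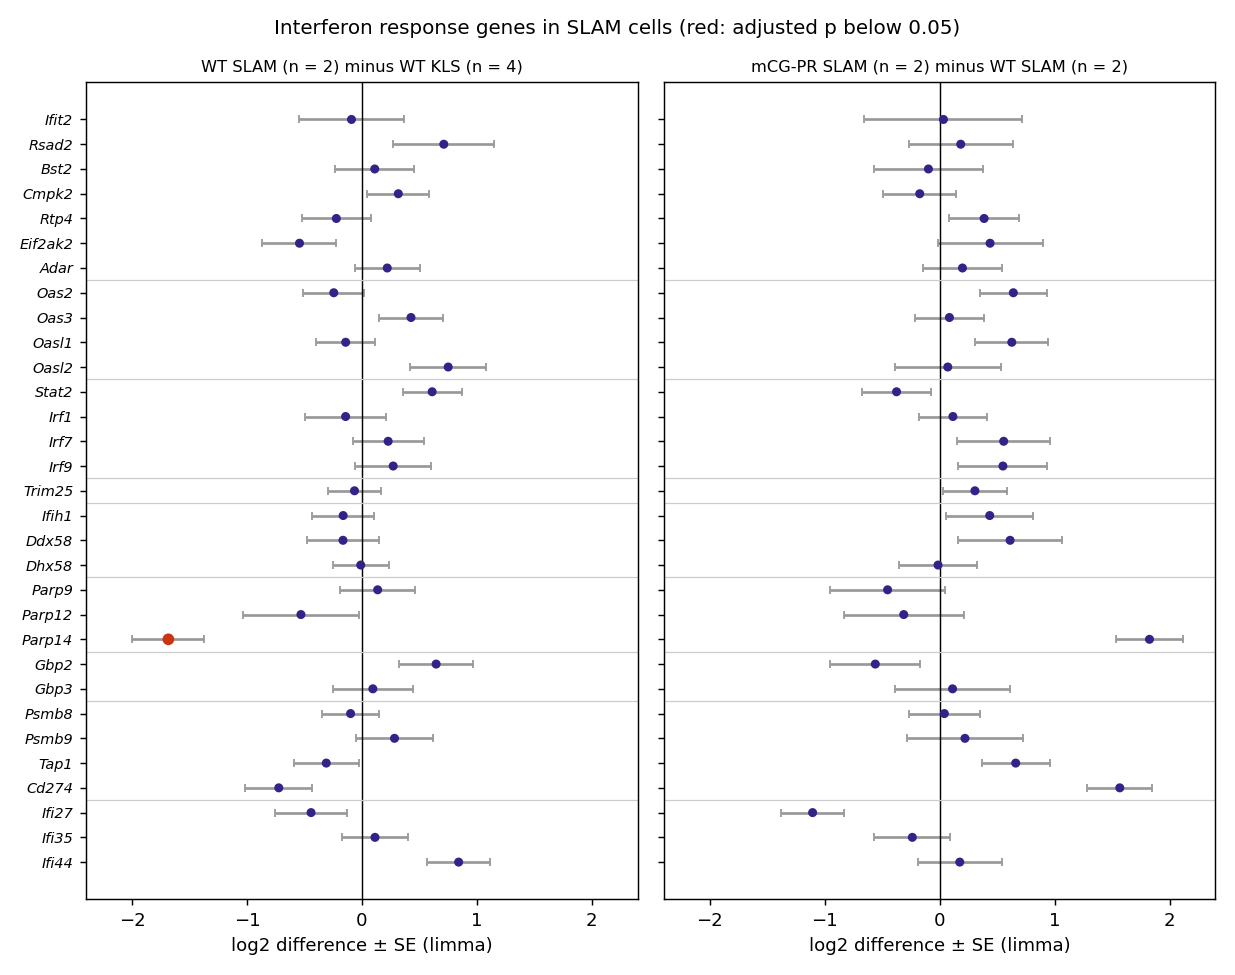
Log2 difference with its standard error for each of the 31 genes between WT SLAM and WT KLS (left, n = 2 and 4) and between mCG-PR SLAM and WT SLAM (right, n = 2 and 2). Parp14 stands at -1.68 on the left, the only value past the adjusted threshold (red), and at 1.83 on the right, followed by Cd274 at 1.57; Ifi27 is lowest on the right at -1.10.

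Whether mCG-PR and WT differed by another amount in SLAM than in KLS was fitted as an interaction over all 13 arrays. No member and no other gene passed the adjusted threshold (0%). At an unadjusted p below 0.05, 2 members had a positive interaction, SLAM minus KLS (6.45%, against 1.97% of all genes), and 1 a negative one (3.23%, against 5.85%). They were Cd274 (1.85 ± 0.40, adjusted p = 0.229), Parp14 (1.74 ± 0.42, adjusted p = 0.286) and Ifi27 (-1.63 ± 0.48, adjusted p = 0.316). The Ifi27 value turned to 0.35 (adjusted p = 0.970) with the probe sets of D12Ertd647e. Bst2 had an interaction of -0.82 ± 0.49 (adjusted p = 0.760), so that its higher level in mCG-PR KLS is not shown to be particular to that population. At equal weights for all arrays the adjusted p-values of the former 3 genes were 0.00997, 0.0233 and 0.0346.

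The pathway around these genes was followed with 47 genes of interferon signalling and nucleic acid sensing, of which 36 were tested. Over both ages in KLS none passed the adjusted threshold. At an unadjusted p below 0.05, 5 were higher (13.9%, against 9.69% of all genes) and 1 was lower (2.78%, against 2.38%), shares near those of all genes, and 31 differences were positive (86.1%, against 67.9%). The receptor chains Ifnar1, Ifnar2, Ifngr1 and Ifngr2 differed by 0.20, 0.06, 0.08 and 0.37, the kinases Jak1 and Tyk2 by 0.17 and 0.04, the sensor-activated factor Irf3 by 0.14 and the feedback inhibitor Socs1 by 0.35. Irf8, a factor needed for plasmacytoid dendritic and monocytic cells and a marker on the list above, was at 6.24 to 6.80 in WT KLS, at 7.82, 8.54 and 7.70 at 6 weeks and at 7.67 and 7.09 at 13 weeks. It rose by 1.47 ± 0.22 at 6 weeks (adjusted p = 0.0433), and differed by 0.83 ± 0.25 at 13 weeks (adjusted p = 0.204). The 6-week call was lost without WT KLS replicate 1 (adjusted p = 0.105), 2 (0.145) or 4 (0.0788), or without 6-week replicate 2 (0.113), and under a replicate block (0.0942). Over all alternatives other than leaving out an array, its adjusted p in limma ranged from 0.0181 to 0.291. Tlr7, the endosomal sensor of single-stranded RNA, differed by 0.67 ± 0.19 over both ages (adjusted p = 0.189), and Aim2, a sensor of cytoplasmic DNA, by -0.50 ± 0.15 (adjusted p = 0.191).

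In WT SLAM against WT KLS, 3 of the 36 signalling genes passed the adjusted threshold, all lower in SLAM, where 330 of all genes passed (3.12%), 293 of them lower. Ifnar2 was at 9.64 to 9.86 in WT KLS and at 8.11 and 8.40 in WT SLAM, a fall of 1.52 ± 0.26 on the log2 scale, with an adjusted p of 0.00760, or 0.0884 without WT SLAM replicate 1. Aim2 fell by 1.32 (adjusted p = 0.0252), with WT KLS at 10.58 to 11.07 and WT SLAM at 9.63 and 9.59. Tlr7 fell by 1.59 (adjusted p = 0.0450), with WT KLS at 6.77 to 7.33 and WT SLAM at 5.29 and 5.76. The calls of Aim2 and Tlr7 were lost without either WT SLAM array (adjusted p between 0.131 and 0.280), and that of Tlr7 also without WT KLS replicate 1 (0.0727), 2 (0.0671) or 4 (0.0688). Ifnar1, the partner chain of Ifnar2, differed by -0.33 ± 0.29 (adjusted p = 0.617).

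A wider list of 81 other interferon-stimulated genes, of which 60 were tested, served to set the members beside genes of the same response. Over both ages in KLS none passed the adjusted threshold. At an unadjusted p below 0.05, 2 were higher (3.33%, against 9.69% of all genes) and 6 lower (10%, against 2.38%), with a median of 0.05 against 0.09 for all genes. The smallest p was that of Trim12a (-0.73, adjusted p = 0.169), and H2-K1, a classical MHC class I heavy chain, differed by -0.43 (adjusted p = 0.258). At 6 weeks 7 were higher (11.7%, against 10.9%) and 3 lower (5%, against 1.69%), with a median of 0.13 against 0.11. At 13 weeks 3 were higher (5%, against 7.57%) and 8 lower (13.3%, against 5.91%), with a median of -0.08 against 0.05. Between 13 and 6 weeks 2 were higher (3.33%, against 2.76%) and 9 lower (15%, against 9.36%), led by Pnpt1 (-0.94), Irgm1 (-0.84) and Ifi203 (-0.78). In WT SLAM against WT KLS, Isg20, an exonuclease of single-stranded RNA, rose by 1.19 ± 0.27 (adjusted p = 0.0285), and Slfn2, a Schlafen gene known for keeping immune cells quiescent, rose by 1.70 ± 0.41 (adjusted p = 0.0341). Both calls were lost without either WT SLAM array (adjusted p between 0.0539 and 0.366), and that of Slfn2 also without WT KLS replicate 3 (0.0551) or 4 (0.0525) and under a replicate block (0.0525). In mCG-PR SLAM, Isg20 was at 6.81 and 7.76 and Slfn2 at 6.80 and 6.97, against 8.55 and 8.81, and 7.90 and 9.03, in WT SLAM.

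The untested members were followed by their levels alone. Mx1 and Mx2, dynamin-like GTPases against viruses, were at 4.74 to 6.27 and 5.03 to 6.34 over the 13 arrays, around or below the filter. In a fit with no filter, Mx2 differed by 0.42 ± 0.16 in mCG-PR KLS over both ages (adjusted p = 0.402) and Mx1 by -0.14. Ifit1, with 2 probe sets, was at 5.97 to 7.35 over the arrays. Ifit3, with 1 probe set, was at 1.97 to 7.67, a spread seen among replicates of each KLS group, and was not read further. The 10 probe sets of Oas1a are listed with its paralogue Oas1g and were not used.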

How the data were processed

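RNA levels of 13 arrays, 1 mouse each, were taken from the deposited table of intensity values per probe set. The submitters' processing notes name RMA and mm9; no further settings are stated there. Each deposited intensity was linear, and its log2 was used with no further scaling. The 229581 probe sets comprised 208397 annotated to 1 gene, which were used, 3965 to several genes and 17219 to no gene. Genes with 3 or more were summarised by the median, and those whose mean over the arrays exceeded the 30th percentile (log2 6.00) entered the tests. Where symbols had changed, current and older names were matched through RefSeq.

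Tests were run in R 4.3.3 with the linear models of limma 3.58.1, with Benjamini-Hochberg adjustment over all tested genes. KLS comparisons used the 9 KLS arrays, the SLAM genotype comparison its 4 arrays, and the comparisons across populations all 13 with 1 weight per population, since SLAM arrays vary more. In simulated data, fits that mixed the populations made more false calls than their threshold allows, and the fit of the 4 SLAM arrays made no calls, true or false. The simulation was run once for each comparison, with each gene's spread taken from these few arrays, so it cannot give the share of false calls in the real data. Labels give 1 mouse per array, so p-values measure the spread between mice.

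The members and gene lists were chosen with earlier results of these data known. Array values are given for members past the adjusted threshold, for the 4 with the smallest p in each comparison and for the first of each role by p in KLS. For some of these they are given as a range or for some groups only. Genes outside the list are named for their place in the pathway, for an adjusted p past the threshold, for one of the 3 smallest p in their list, or as cell type markers. Alternatives covered the filter, the mean of probe sets, scaling, the arrays and weights in the fit, the replicate number as a block, the age of the controls, and leaving out each array. After the data were seen, the probe sets of D12Ertd647e were tried for Ifi27, and every alternative was also run for 8 called genes outside the list.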

Additional observations from a re-analysis of the deposited data

Results flagged for a closer look

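Among the 4 WT KLS arrays, Eif2ak2 on replicate 1 stood apart from the others. Replicate 1 was at 8.53 and the other 3 at 8.31, 8.32 and 8.33, so that the gap to the nearest array was 0.898 of the whole range. The spread of this group was small (SD 0.10), and the cause of the gap was not tested. Without that array the 6-week difference of Eif2ak2 was 0.47 (adjusted p = 0.323), against 0.42 (adjusted p = 0.329) with it.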

How the results depend on the processing

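No called value reversed under the alternatives run, and the count of members called stayed at 0 in the KLS comparisons under all of them. For WT SLAM against WT KLS, 1 member passed, 4 with all 13 arrays at equal weights, 2 with only the compared groups, and 0 to 1 with an array left out. For mCG-PR SLAM against WT SLAM and for the interaction, 0 passed, and 3 each at equal weights. The member median of WT SLAM against WT KLS ranged from -0.19 to 0.13 and that of the SLAM genotype comparison from 0.010 to 0.38 with an array left out.

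Counts over all genes moved more. For both ages (9 genes) they were 19 with a 50th percentile filter, 17 with means of probe sets, 24 with array weights, 0 at equal weights and 0 with WT KLS replicates 3 and 4 as the only controls. At 6 weeks (4 genes) they were 1 without a filter, 11 with the stricter filter, 1 after quantile normalization, 1 after subtracting medians, 1 at equal weights, 12 with population weights, 2 with only the compared groups and 0 with those controls. At 13 weeks (1 gene) they were 0 without a filter, after subtracting medians, at equal weights, with population weights and with those controls, 2 with means, 12 with only the compared groups and 22 with array weights. Between the ages (1 gene) they were 0 without a filter, with means, at equal weights and with only the compared groups. For WT SLAM against WT KLS (330 genes) they were 531 with means, 1229 at equal weights, 947 with only the compared groups and 213 with those controls. For the SLAM genotype comparison (0 genes) they were 1 with the stricter filter, 1 with means, 275 at equal weights and 3 with population weights. For the interaction (0 genes) they were 2 with means and 113 at equal weights. With an array left out they ranged from 0 to 41 for both ages and 1 to 43 at 6 weeks (both highest without WT KLS replicate 3), 0 to 14 at 13 weeks, 0 to 17 between the ages, 94 to 334 for WT SLAM against WT KLS (94 and 98 without WT SLAM replicates 1 and 2), 0 to 0 for the SLAM genotype comparison and 0 to 5 for the interaction. Of the 9 genes called over both ages 6 were higher, against 50% of those called after quantile normalization. The causes were not tested.

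With the replicate number as a block, 1, 1, 2, 189 and 1 genes passed for both ages, 6 weeks, 13 weeks, WT SLAM against WT KLS and the interaction, and Bst2 differed by 0.63 over both ages (adjusted p = 0.282). Same-numbered arrays did not deviate together (correlations of -0.07 to 0.08, 0 above 0.1). This gave no sign that the numbers pair the mice but cannot exclude it. In a group of 2 arrays the deviations mirror each other, which fixes part of these correlations. The small number of arrays, above all the 2 per SLAM group, limits what could be detected.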
